A study of Mus musculus with 12 samples.

Results

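The genes described here are 37 genes of the cyclic AMP (cAMP) pathway, read out in macrophages that had been exposed to the neuropeptide CGRP. They were chosen by symbol: 28 encode the signalling machinery (the stimulatory G protein, adenylate cyclases, protein kinase A, CREB factors and their co-factors, Epac, arrestins and phosphodiesterases) and 9 are listed as targets of CREB. All 37 were present among the 26699 gene symbols counted, and 36 passed the filter on low counts that left 11927 genes for testing. The exception was Pde4c, which had between 0 and 9 counts in every library.

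Whole synovium, the membrane lining the knee joint, was taken from adult wild-type C57BL/6 mice (C57BL/6J background in the study's methods) and incubated ex vivo for 4 h with 100 nM CGRP or with none, and the MHC class II-bearing macrophages were then separated by sorting into IAIE cells, named for the I-A/I-E class II antigen and lacking CD11c, and CD11c cells, which carry both. Neither genotype nor tissue differed between the 4 groups (IAIE control, IAIE CGRP, CD11c control and CD11c CGRP), each of which had 3 libraries. CGRP was added to the explant before the sort, so that every cell type of the synovium met it as well as the macrophages. Whether the libraries came from separate mice is not given in the labels, and p-values measure the spread between these libraries, which may in part be technical.

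CGRP acts through the receptor Calcrl together with Ramp1, which couples to the stimulatory G protein (its alpha subunit is encoded by Gnas). That protein switches on adenylate cyclases, the cAMP they make releases the catalytic subunits of protein kinase A (PKA) from their regulatory subunits and activates Epac, and PKA phosphorylates CREB, which binds the cAMP response element in promoters and is assisted by the CRTC co-factors. Phosphodiesterases break cAMP down, arrestins silence the receptor, and in macrophages the pathway is known for restraining inflammatory cytokines.

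The 12 libraries held 2127191 to 5649698 counts each. Levels are given as CPM, counts scaled to library size by TMM, on which a floor of 3 counts stood for 0.534 to 1.34. Spearman correlations between libraries of a group lay between 0.934 and 0.968. Itgax, which encodes CD11c, stood at 219 to 270 CPM in CD11c control and 107 to 121 CPM in CD11c CGRP, against 1.24 to 10.7 CPM in IAIE cells. It was itself lower with CGRP in CD11c cells (log2 difference -1.03 ± 0.30, adjusted p = 0.0288). Of 3 genes of the class II sort marker, 2 were called lower with CGRP in each subset (median log2 difference -0.74 in IAIE and -0.61 in CD11c cells). Beside these, 3.89% and 4.59% of all genes fell. All 3 were higher in CD11c than in IAIE cells in both treatments. The 6 macrophage markers summed to between 4231 and 7482 CPM in every library, but 5 of them were lower in CD11c than in IAIE cells in both treatments (median log2 difference of the 6 -1.15 in control and -1.13 after CGRP), among them Csf1r, at 1439 CPM in IAIE control and 595 CPM in CD11c control, and the exception was Cd14. The part of these markers in the differences of the members was not tested. T cell and fat cell markers were at or near 0. Others were not: in the highest library the sum was 118 CPM for endothelial and 135 CPM for neutrophil markers. It reached 72.2 CPM for B cell, 70.6 CPM for mast cell and 51.6 CPM for neuron and Schwann cell markers. Lining macrophage markers summed to 497 to 703 CPM in IAIE cells and 212 to 379 CPM in CD11c cells. The part of these markers in the members' differences was not tested either. Dendritic cell markers summed to 58.5 to 96.2 CPM in IAIE cells, 313 to 375 CPM in CD11c control and 581 to 703 CPM in CD11c CGRP. Within that sum Ccr7 rose with CGRP in CD11c cells, from a mean of 240 to 576 CPM, and Flt3 fell, from 18.6 to 4.46 CPM; 3 of the 4 dendritic markers tested had negative differences, and their part in the differences of CD11c cells was not tested. Fibroblast and mural cell markers differed between libraries and, in CD11c cells, with CGRP. There all 4 mural markers were called higher (median log2 difference 5.42), as were 2 of 5 tested fibroblast markers (median 3.96), beside 6.29% of all genes. In IAIE cells 0 of 4 mural markers were called, and 2 of 5 fibroblast markers were lower, beside 3.89% of all genes. The sum of fibroblast and mural markers was 1131 CPM in IAIE control replicate 2, 1705 CPM in IAIE CGRP replicate 1 and 657 CPM in CD11c CGRP replicate 1. It was 133 to 298 CPM in the other IAIE libraries and 49.4 to 54.7 CPM in CD11c control. In the other CD11c CGRP libraries it was 235 to 402 CPM. Counts or calls of members are therefore also given without the 3 libraries over 500 CPM. In CD11c cells the libraries kept still differed in these markers by treatment, so that fit cannot separate the markers from CGRP there. In sorted bulk samples, fewer cells of a type and less RNA per cell cannot be told apart.

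Promoters of the members were searched for the cAMP response element TGACGTCA and for its core TGACG, on either strand, in the window from 250 bases before to 50 bases after each start listed by RefSeq (GRCm38.p6). The full element contains the core on both strands. Of the 37 genes, 28 had a promoter in that table; of the 8 that changed with CGRP, Adcy6, Sik1 and Thbs1 had none. The full element stood in a promoter of 3 of them, Prkar1a, Dusp1 and Areg (10.7%), against 2.03% of all 27025 genes, and the core in 19 (67.9%) against 23% of all genes. Members had more listed starts per gene than genes at large, and per promoter the shares were 7.55% of 53 against 1.79% of all 32851 for the full element and 45.3% against 20.8% for the core. By group, 6 of 7 matched CREB targets held a core, 4 of 5 PKA genes, 4 of 6 phosphodiesterases, 2 of 4 adenylate cyclases and 1 of 4 CREB factors and co-factors. These are matches of letters and not measured binding sites. Genes listed as CREB targets, Dusp1 and Areg included, are members by choice, so the excess over all genes is no independent evidence. All genes were not matched to the members in base content. The sequences below belong to members that fell with CGRP in at least 1 subset, with the matches in capitals; Fosl2 is shown as a member that fell without a match in this window.
Nr4a1 (chr15:101266596-101266895, + strand): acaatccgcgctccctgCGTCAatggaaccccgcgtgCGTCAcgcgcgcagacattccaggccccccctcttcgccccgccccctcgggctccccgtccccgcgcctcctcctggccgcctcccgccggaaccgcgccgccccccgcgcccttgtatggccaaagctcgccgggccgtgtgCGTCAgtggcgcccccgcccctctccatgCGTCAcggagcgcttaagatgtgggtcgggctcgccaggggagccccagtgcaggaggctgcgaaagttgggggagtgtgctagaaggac
Nr4a2 (chr2:57123954-57124253, - strand): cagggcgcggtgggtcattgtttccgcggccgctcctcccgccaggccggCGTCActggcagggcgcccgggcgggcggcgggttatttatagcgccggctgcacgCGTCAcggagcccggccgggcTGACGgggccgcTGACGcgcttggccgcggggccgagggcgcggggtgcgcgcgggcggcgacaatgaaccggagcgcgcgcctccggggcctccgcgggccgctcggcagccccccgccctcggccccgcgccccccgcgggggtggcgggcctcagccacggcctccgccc
Dusp1 (chr17:26508423-26508722, - strand): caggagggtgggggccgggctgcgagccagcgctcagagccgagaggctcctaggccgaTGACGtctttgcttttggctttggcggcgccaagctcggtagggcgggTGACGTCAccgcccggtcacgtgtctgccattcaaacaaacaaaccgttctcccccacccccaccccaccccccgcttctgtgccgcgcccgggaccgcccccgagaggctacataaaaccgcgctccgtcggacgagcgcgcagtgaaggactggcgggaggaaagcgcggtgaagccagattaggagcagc
Adcy7 (chr8:88282742-88283041, + strand): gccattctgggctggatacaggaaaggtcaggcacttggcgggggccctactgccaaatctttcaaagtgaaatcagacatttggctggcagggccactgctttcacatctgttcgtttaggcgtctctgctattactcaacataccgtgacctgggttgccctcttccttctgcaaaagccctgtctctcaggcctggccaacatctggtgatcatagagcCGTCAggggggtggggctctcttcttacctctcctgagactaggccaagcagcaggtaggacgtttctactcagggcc
Fosl2 (chr5:32136222-32136521, + strand): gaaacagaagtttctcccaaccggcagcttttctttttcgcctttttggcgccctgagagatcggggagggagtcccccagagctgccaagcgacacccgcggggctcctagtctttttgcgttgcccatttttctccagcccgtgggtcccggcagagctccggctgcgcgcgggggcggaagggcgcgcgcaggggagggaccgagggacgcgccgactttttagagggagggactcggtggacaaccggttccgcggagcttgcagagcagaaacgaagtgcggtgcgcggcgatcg
Nr4a1 and Nr4a2 each held 4 cores and no full element, Dusp1 held the full element 143 bases before the start and a further core 191 bases before it, and Adcy7 held a single core 28 bases before the most upstream of its 3 starts.

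The first question was which of these genes differed after CGRP. In IAIE cells 1 of 36 members rose, Thbs1, where 5.32% of all genes tested rose, and 3 fell, Adcy7, Nr4a1 and Nr4a2, where 3.89% of all genes fell. In CD11c cells 2 rose, Adcy6 and Thbs1 (6.29% of all genes rose), and 5 fell, Adcy7, Nr4a2, Sik1, Fosl2 and Dusp1 (4.59% of all genes fell). Membership of a count rests on an adjusted p under 0.05 in edgeR's quasi-likelihood test across all genes. The median log2 change of the members was 0.01 in IAIE cells and -0.08 in CD11c cells, beside -0.02 and 0.0016 over all genes. Without the 3 libraries high in fibroblast and mural markers, 1 member fell in IAIE cells, Adcy7. There Nr4a1 had a log2 difference of -0.58 (adjusted p = 0.0717) and Nr4a2 of -0.83 (adjusted p = 0.0686). In CD11c cells the same fit lost Sik1 and Dusp1 among the lower members and added Nr4a1. Adcy6 and Thbs1 stayed higher in it.

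**Figure D1:**
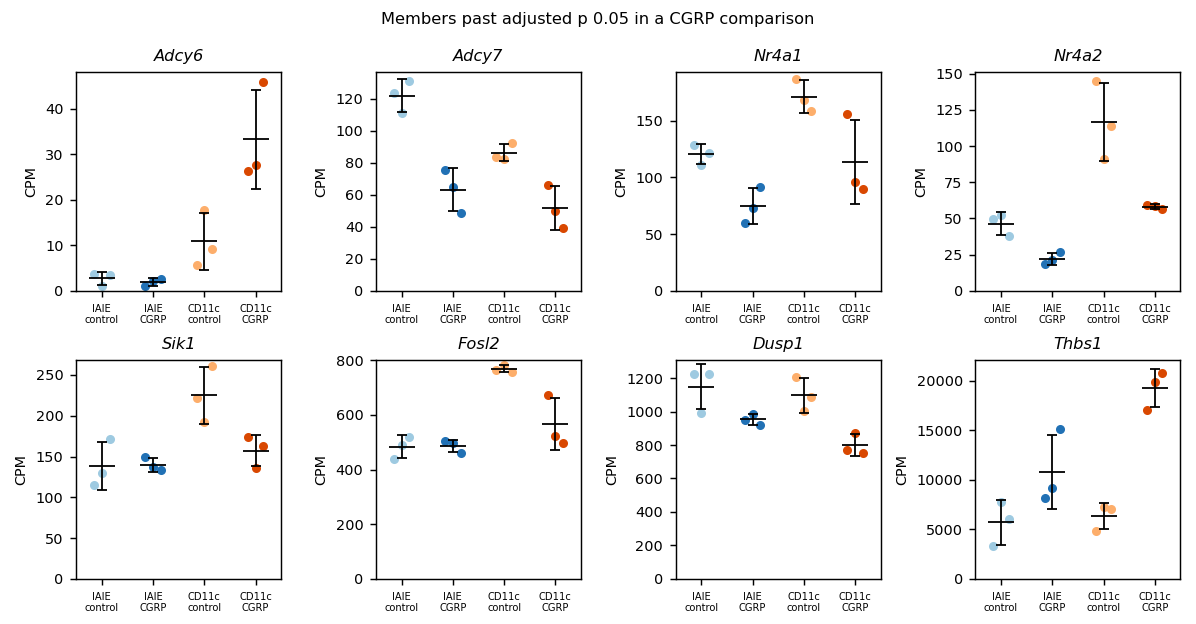
CPM of the 8 members past the threshold in a CGRP comparison; points are libraries, and bars are mean and SD over 3 libraries per group. Nr4a2 and Adcy7 lay lower after CGRP in both subsets with no overlap, and Thbs1 lay higher in both.

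Among the adenylate cyclases, the enzymes that make cAMP, the 2 that passed the threshold went in opposite directions. Adcy7, the cyclase known for its abundance in blood and immune cells, stood at 123, 111 and 131 CPM in IAIE control and at 75.4, 64.9 and 48.8 CPM in IAIE CGRP. In CD11c cells it stood at 83.6, 82.5 and 92.3 CPM without CGRP and at 66.4, 50 and 39 CPM with it. Every CGRP library lay below every control library of its subset, and the fall was 0.95 ± 0.19 (SE) on the log2 scale in IAIE cells (1.94-fold lower, adjusted p = 0.0026) and 0.74 ± 0.19 in CD11c cells (1.67-fold lower, adjusted p = 0.0154). The IAIE value stayed past the threshold in every alternative fit. The CD11c value did not with a surrogate variable in the fit or without CD11c control replicate 3, CD11c CGRP replicate 2 or CD11c CGRP replicate 3, where its adjusted p reached 0.0831.

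Adcy6, a cyclase inhibited by calcium, was low in IAIE cells, at 3.72, 1.15 and 3.58 CPM in control and 1.06, 2.19 and 2.64 CPM after CGRP. In CD11c cells it was 5.71, 17.8 and 9.23 CPM in control and 26.3, 27.7 and 45.9 CPM after CGRP. The CD11c groups did not overlap, and the rise was 1.58 ± 0.41 on the log2 scale (2.99-fold, adjusted p = 0.0157). In IAIE cells the difference was -0.44 ± 0.57 (adjusted p = 0.722), with overlapping groups. The test of the difference between the 2 subsets' responses gave 2.02 ± 0.70 (adjusted p = 0.363), so that a response particular to CD11c cells was not shown. The call was lost without CD11c control replicate 1, CD11c control replicate 3 or CD11c CGRP replicate 3 and with a surrogate variable, with an adjusted p of up to 0.136. The summed fibroblast and mural markers were also higher in all CD11c CGRP libraries than in CD11c control, and their part in the Adcy6 value was not tested. Without CD11c CGRP replicate 1 and the other 2 marker-rich libraries Adcy6 stayed past the threshold. The CD11c CGRP libraries kept in that fit held 235 and 402 CPM of these markers, against 49.4 to 54.7 CPM in CD11c control. That fit therefore cannot separate the markers from CGRP. An antisense gene, Gm29331, covers 8.92% of its exon length, and the strand setting of the counting is not given in the sources used here.

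The other cyclases were not called. Adcy9 averaged between 7.44 and 15.2 CPM in the groups and Adcy3 between 3.29 and 7.62 CPM. Opposite-strand exons of Cenpo cover 22.1% of the exon length of Adcy3. Adcy4 was at or near the floor in several libraries, with 0 to 45 counts. The log2 differences of Adcy9 with CGRP were 0.01 and 0.10 in IAIE and CD11c cells, with 95% intervals from -0.71 to 0.73 and from -0.65 to 0.86. Those of Adcy3 and Adcy4 lay between -0.97 and 1.10, and their intervals reached from -2.31 to 3.0, so that changes of several fold in these 2 low genes were not detectable at this depth.

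The parts of the pathway on either side of the cyclases were not called. Gnas averaged 51 ± 4.5 (SD, n = 3) CPM in IAIE control and 50.2 ± 3.87 CPM in IAIE CGRP, a log2 difference of -0.02 with a 95% interval from -0.44 to 0.39. In CD11c cells Gnas averaged 72.9 ± 22.4 CPM without and 66.9 ± 4.02 CPM with CGRP, and the interval of the difference reached from -0.54 to 0.27. Antisense and other opposite-strand exons, among them Nespas, cover 22% of the exon length of Gnas.

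None of the 5 PKA genes was called after CGRP. The catalytic subunit genes Prkaca and Prkacb differed by between -0.30 and 0.21 on the log2 scale. Prkar2b, a type II regulatory subunit gene, stood at 19.5, 21.5 and 15.7 CPM in IAIE control and at 36, 26.5 and 32.6 CPM in IAIE CGRP. Those groups did not overlap, and the difference of 0.74 ± 0.26 had an adjusted p of 0.0847. Prkar1a, the type I regulatory subunit gene and the PKA gene with the highest level per exon length, averaged 211 and 250 CPM in IAIE cells and 253 and 281 CPM in CD11c cells without and with CGRP. The intervals of all 5 genes lay between -0.51 and 1.27 in IAIE cells and between -1.03 and 1.02 in CD11c cells.

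The CREB group gave the same count. Creb1, Atf1 and Crem, which encode the DNA-binding factors, and Crtc1, Crtc2 and Crtc3, which encode the co-factors, all missed the threshold in both subsets. Crem, whose inducible short form is known as a cAMP-driven repressor, averaged 58.7 and 57.4 CPM in IAIE cells and 117 and 111 CPM in CD11c cells without and with CGRP; its log2 differences were -0.03 ± 0.16 and -0.07 ± 0.15. Counts per gene symbol do not separate the short form from the others. An opposite-strand gene, Gm6225, covers 8.01% of the exon length of Crem, and the strand setting of the counting is not given. The lowest adjusted p of the group was 0.0746, for Crtc2 in CD11c cells (77.5, 64.5 and 62 CPM in control, 50.6, 48.5 and 43.2 CPM after CGRP). Those Crtc2 groups did not overlap, the difference was -0.51 ± 0.18, and it passed the threshold with upper-quartile scaling (adjusted p = 0.0445) and with the compared libraries alone (0.0464).

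Of the other readers and brakes of the signal, Rapgef3, which encodes the cAMP sensor Epac, had 0 to 47 counts per library and intervals from -2.0 to 2.83 in IAIE cells. Arrb1 and Arrb2, the genes of the arrestins that bind activated receptors, missed the threshold; Arrb1 in CD11c cells stood at 69.4, 70.6 and 69.7 CPM in control and 104, 84.9 and 116 CPM after CGRP (log2 difference 0.54 ± 0.18, adjusted p = 0.0645). The Arrb1 groups did not overlap in CD11c cells, and the difference passed the threshold with limma-voom (adjusted p = 0.0251), with the compared libraries alone (0.0295) and without IAIE CGRP replicate 3 (0.0447) or CD11c CGRP replicate 2 (0.0498).

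None of the 7 tested phosphodiesterase genes was called after CGRP in either subset. Pde4b, the phosphodiesterase gene with the highest level, fell within its own spread: 338, 329 and 303 CPM in IAIE control against 254, 231 and 320 CPM in IAIE CGRP, and 494, 428 and 408 CPM against 409, 424 and 415 CPM in CD11c cells. Pde3b, at group means of 86.9 to 142 CPM, and Pde8a, at 41.4 to 57.2 CPM, differed by at most 0.14 on the log2 scale. Pde4d, Pde7a, Pde4a and Pde2a had group means of at most 18.2 CPM and intervals reaching from -2.17 to 2.11.

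**Figure D2:**
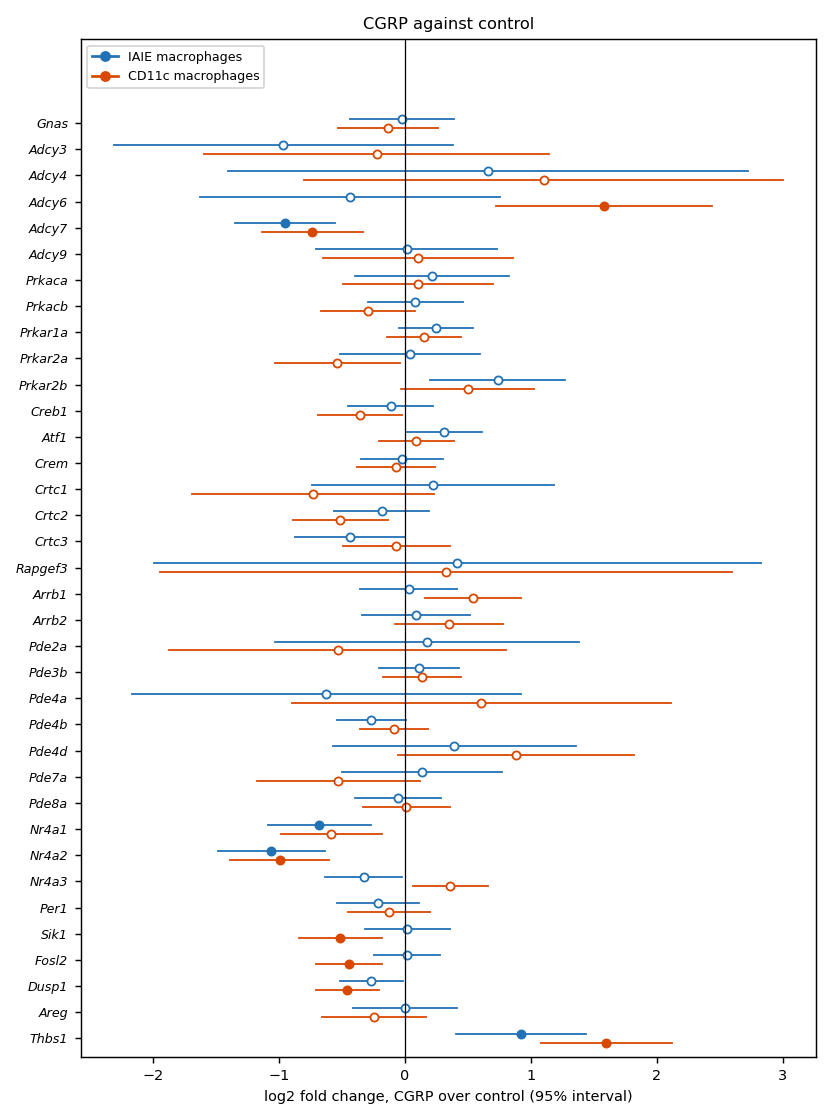
Log2 fold change of CGRP over control for the 36 tested members in both subsets; lines are 95% intervals, and filled points have an adjusted p under 0.05. Points of the machinery genes other than Adcy6 and Adcy7 are open in both subsets, and Thbs1 lies furthest to the right of the targets.

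The CREB targets moved in different directions. Nr4a2, an orphan nuclear receptor of the immediate early class, stood at 49.3, 52.5 and 37.6 CPM in IAIE control and 18.5, 21.4 and 26.8 CPM in IAIE CGRP. In CD11c cells it stood at 145, 91.2 and 114 CPM in control and 59.5, 58.9 and 56.4 CPM after CGRP. No control library overlapped a CGRP library of its subset, and Nr4a2 fell by 1.06 ± 0.20 on the log2 scale in IAIE cells (2.09-fold lower, adjusted p = 0.00185) and by 0.996 ± 0.19 in CD11c cells (1.99-fold lower, adjusted p = 0.00129). Leaving out any single library changed neither call.

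Nr4a1, its close relative, stood at 128, 111 and 122 CPM in IAIE control and 59.8, 72.6 and 91.8 CPM in IAIE CGRP, without overlap, and fell by 0.68 ± 0.20 on the log2 scale (1.60-fold lower, adjusted p = 0.0327). Leaving out 7 of the 12 libraries, singly, lost this call, with adjusted p of up to 0.156. In CD11c cells Nr4a1 was 186, 168 and 158 CPM in control and 156, 95.5 and 89.3 CPM after CGRP. Those groups did not overlap either, but the difference of -0.59 ± 0.19 had an adjusted p of 0.0564, and CD11c CGRP replicate 1 stood nearest to the controls; without it the difference was -0.92 (adjusted p = 0.0021). Nr4a1 passed the threshold in CD11c cells in 10 alternative fits, among them the replicate block (adjusted p = 0.0414), RLE scaling (0.0482), DESeq2 (0.0286), limma-voom (0.0251) and the fit without the 3 marker-rich libraries (0.0021). The test between subsets gave 0.10 ± 0.27 for Nr4a1 and 0.07 ± 0.27 for Nr4a2.

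Nr4a3, the third gene of the family, did not pass the threshold in either subset. It was 204, 208 and 212 CPM in IAIE control and 134, 213 and 149 CPM in IAIE CGRP, with overlap and a log2 difference of -0.33 ± 0.15 (adjusted p = 0.194). In CD11c cells it was 1747, 2053 and 1892 CPM in control and 2356, 2697 and 2238 CPM after CGRP, without overlap and with a difference of 0.36 ± 0.14 (adjusted p = 0.127). The difference between the subsets' responses was 0.69 ± 0.20 with an adjusted p of 0.245, and with treatment and replicate number as an explant block it passed the threshold (0.0433).

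Sik1, Fosl2 and Dusp1 were called lower in CD11c cells. Sik1 encodes a kinase that holds CRTC co-factors outside the nucleus and stood at 222, 192 and 261 CPM in CD11c control and 173, 136 and 163 CPM in CD11c CGRP (log2 difference -0.51 ± 0.16, adjusted p = 0.0417). Fosl2, a member of the AP-1 family, stood at 765, 784 and 758 CPM and then at 674, 524 and 498 CPM (-0.44 ± 0.13, adjusted p = 0.026). Dusp1, a phosphatase gene that turns off MAP kinases, stood at 1209, 1001 and 1085 CPM and then at 772, 872 and 750 CPM (-0.46 ± 0.12, adjusted p = 0.0154). In each of the 3 genes the CD11c groups did not overlap. In IAIE cells the log2 differences were 0.02 ± 0.16 for Sik1, 0.01 ± 0.13 for Fosl2 and -0.27 ± 0.12 for Dusp1, none past the threshold, and the tests between subsets had adjusted p of 0.497, 0.446 and 0.83. Single libraries decided these calls: Sik1 lost its call in 6 of 12 fits without a library, Fosl2 in 5 and Dusp1 in 2, with adjusted p of up to 0.189, 0.113 and 0.0837. Without the 3 marker-rich libraries the log2 difference was -0.60 for Sik1 (adjusted p = 0.0656) and -0.44 for Dusp1 (adjusted p = 0.0574).

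Per1, a clock gene, and Areg, which encodes an EGF receptor ligand, were not called. Per1 averaged 118 and 102 CPM in IAIE cells and 92.9 and 85.4 CPM in CD11c cells without and with CGRP. Areg averaged 124 and 123 CPM in IAIE cells and 110 and 92.4 CPM in CD11c cells, and its promoter held the full element 61 bases before the start.

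Thbs1, which encodes the matrix glycoprotein thrombospondin 1, was the target that rose. It stood at 3316, 7763 and 6018 CPM in IAIE control and 8151, 9121 and 15088 CPM in IAIE CGRP. In CD11c cells it stood at 4836, 7244 and 6996 CPM in control and 17045, 19880 and 20789 CPM after CGRP. Groups did not overlap in either subset, and the rise was 0.92 ± 0.24 on the log2 scale in IAIE cells (1.89-fold, adjusted p = 0.021) and 1.60 ± 0.25 in CD11c cells (3.03-fold, adjusted p = 2.1e-04). The CD11c call held in every alternative fit, while the IAIE call was lost without IAIE control replicate 1 or IAIE CGRP replicate 3 and with a surrogate variable, with adjusted p of up to 0.185. Stromal cells also express Thbs1. The sum of fibroblast and mural markers was 49.4 to 54.7 CPM in CD11c control and 235 to 657 CPM in CD11c CGRP, and its part in the Thbs1 values was not tested. The difference between the subsets' responses was 0.68 ± 0.34 (adjusted p = 0.601).

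No member passed the test of the difference between the subsets' responses to CGRP, in which 0.134% of all genes tested were called higher in CD11c cells and 0.0168% lower. At an unadjusted p under 0.05 there were 4 members in that edgeR test, Adcy6, Nr4a3, Fosl2 and Sik1, and DESeq2 and limma-voom each called 0 members. The 2 CGRP comparisons use different libraries.

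The next comparison asked how the subsets differed. In control libraries 9 members were higher in CD11c than in IAIE cells (10.2% of all genes tested were higher) and 1 was lower (10.9% of all genes were lower). In CGRP libraries 10 were higher (8.36% of all genes) and 1 was lower (8.51% of all genes). The higher members in control were Adcy6, Prkar2a, Crem, Pde3b, Pde4b, Nr4a2, Nr4a3, Sik1 and Fosl2, and the lower one was Pde8a. After CGRP they were Adcy6, Prkar2a, Crem, Arrb1, Pde3b, Pde4b, Nr4a1, Nr4a2, Nr4a3 and Thbs1, and the lower one was Pde2a. These comparisons share libraries with the CGRP comparisons. Without the 3 marker-rich libraries the count of higher members after CGRP was 6, with Arrb1, Pde3b, Nr4a1 and Thbs1 losing their calls. Among lower members after CGRP, Pde2a lost its call in that fit and Pde7a gained one. In control Pde4b and Pde8a lost theirs.

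**Figure D3:**
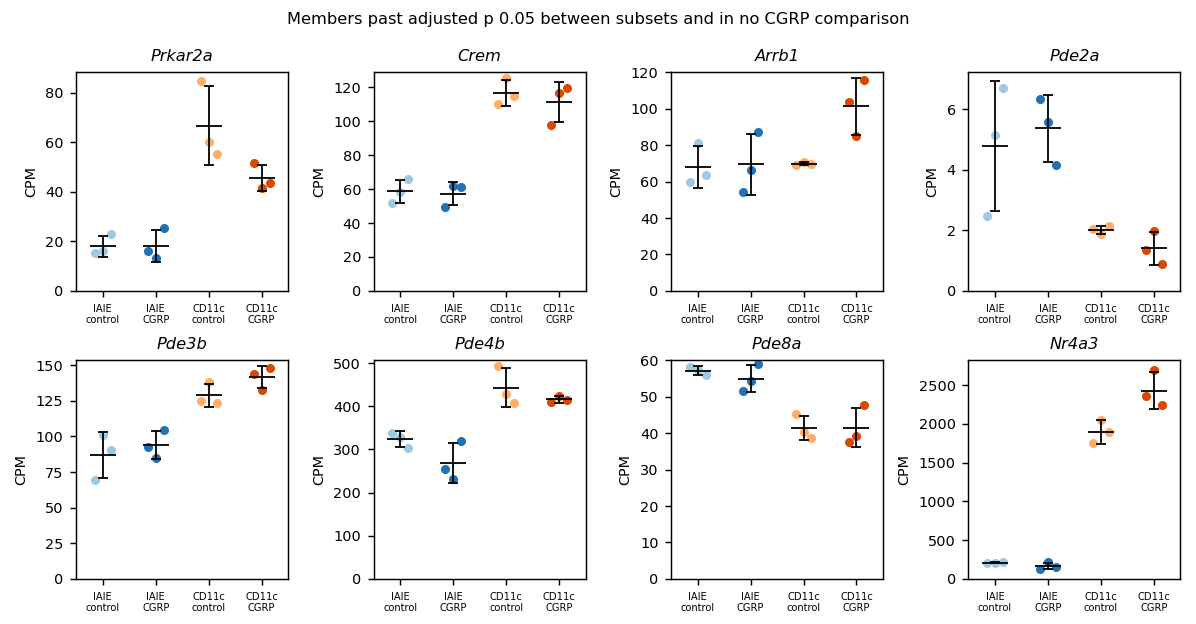
CPM of the 8 members past the threshold between subsets and in no CGRP comparison; points are libraries, and bars are mean and SD over 3 libraries. All but Arrb1 separate the subsets without overlap in both treatments, though Pde2a in control and Pde8a after CGRP missed the threshold. Arrb1 overlaps between the subsets in both treatments.

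Nr4a3 differed most among the targets in control cells. Its 204 to 212 CPM in IAIE control and 1747 to 2053 CPM in CD11c control did not overlap, and the log2 difference was 3.19 ± 0.16 (9.14-fold, adjusted p = 1.6e-10). After CGRP the difference was 3.88 ± 0.16 (14.7-fold, adjusted p = 1.6e-11). Nr4a2 was higher in CD11c cells by 1.31 ± 0.19 in control and 1.38 ± 0.20 after CGRP, with no overlap in either. Nr4a1 was higher by 0.51 ± 0.19 in control (adjusted p = 0.0712) and 0.60 ± 0.19 after CGRP (adjusted p = 0.0388), where the groups overlapped and the call was lost without IAIE CGRP replicate 1, IAIE CGRP replicate 2, CD11c CGRP replicate 1, IAIE control replicate 2 or IAIE control replicate 3. Without the 3 marker-rich libraries that difference was 0.14 (adjusted p = 0.733). Sik1 and Fosl2 were higher by 0.70 ± 0.16 and 0.67 ± 0.13 in control and by 0.17 ± 0.16 and 0.22 ± 0.12, not past the threshold, after CGRP.

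In the machinery, the type II regulatory subunit gene Prkar2a was 15.2, 16.1 and 22.8 CPM in IAIE control and 84.9, 60.3 and 55.1 CPM in CD11c control, without overlap. The log2 difference was 1.90 ± 0.26 (3.72-fold, adjusted p = 2.8e-05) in control and 1.32 ± 0.25 (adjusted p = 7.9e-04) after CGRP. Crem was 52.1, 58.2 and 65.8 CPM in IAIE control and 110, 125 and 115 CPM in CD11c control, a difference of 0.997 ± 0.15 (adjusted p = 1.1e-04), and 0.95 ± 0.15 after CGRP. Adcy6 was higher in CD11c cells by 2.01 ± 0.50 in control (4.03-fold, adjusted p = 0.00641) and by 4.03 ± 0.48 after CGRP (16.4-fold, adjusted p = 6.7e-06). The Adcy6 call in control was lost with limma-voom (adjusted p = 0.0722). In IAIE cells Adcy6 had 12, 4 and 8 counts in control and 4, 9 and 14 after CGRP, so both ratios rest on few counts. The catalytic subunit genes, Gnas, Creb1, Atf1 and the CRTC genes were not called between subsets. Gnas had a log2 difference of 0.53 ± 0.20 (adjusted p = 0.0641) in control, and CD11c control replicate 1, at 47.3 CPM, stood among the IAIE libraries; without it the difference was 0.76 (adjusted p = 0.0039).

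Phosphodiesterase genes differed in both directions. Pde3b, of the class inhibited by cGMP, was 69.2, 101 and 90.4 CPM in IAIE control and 125, 138 and 124 CPM in CD11c control, a log2 difference of 0.57 ± 0.15 (adjusted p = 0.0105), and 0.59 ± 0.15 after CGRP. Pde4b was higher by 0.45 ± 0.13 in control and 0.63 ± 0.13 after CGRP. In control libraries the Pde3b call was lost without IAIE control replicate 1 and the Pde4b call without IAIE control replicate 3 or CD11c control replicate 1. Pde8a was lower by 0.47 ± 0.17 in control, at 58.3, 57.3 and 56 CPM in IAIE against 45.3, 40.2 and 38.8 CPM in CD11c cells. Those groups did not overlap, but the adjusted p of 0.0494 was lost in all 12 fits that left out a library. Pde2a, of the class stimulated by cGMP, was 6.35, 5.59 and 4.15 CPM in IAIE CGRP and 1.34, 1.98 and 0.89 CPM in CD11c CGRP (-1.93 ± 0.61, adjusted p = 0.0353); the call was lost without IAIE CGRP replicate 1, IAIE CGRP replicate 2, CD11c CGRP replicate 1 or CD11c CGRP replicate 3. In GENCODE vM21 a same-strand gene model, Gm45837, covers 64.3% of the exon length of Pde2a. The annotation used for the counts is not given, so whether this overlap affected the value of Pde2a is not known.

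Arrb1 and Thbs1 were called between subsets after CGRP and not in control; the test of that difference itself was not past the threshold (adjusted p = 0.598 and 0.601). Arrb1 was 54.5, 66.3 and 87.5 CPM in IAIE CGRP and 104, 84.9 and 116 CPM in CD11c CGRP, with overlap, and its log2 difference of 0.54 ± 0.18 (adjusted p = 0.0438) was lost in 8 of the 12 fits without a library. Thbs1 was higher in CD11c cells by 0.83 ± 0.24 after CGRP (adjusted p = 0.0223) and by 0.16 ± 0.24, not past the threshold, in control. The first call was lost without any 1 of IAIE CGRP replicates 1 and 2 and CD11c CGRP replicates 2 and 3. It was also lost with DESeq2 and without the 3 marker-rich libraries.

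**Figure D4:**
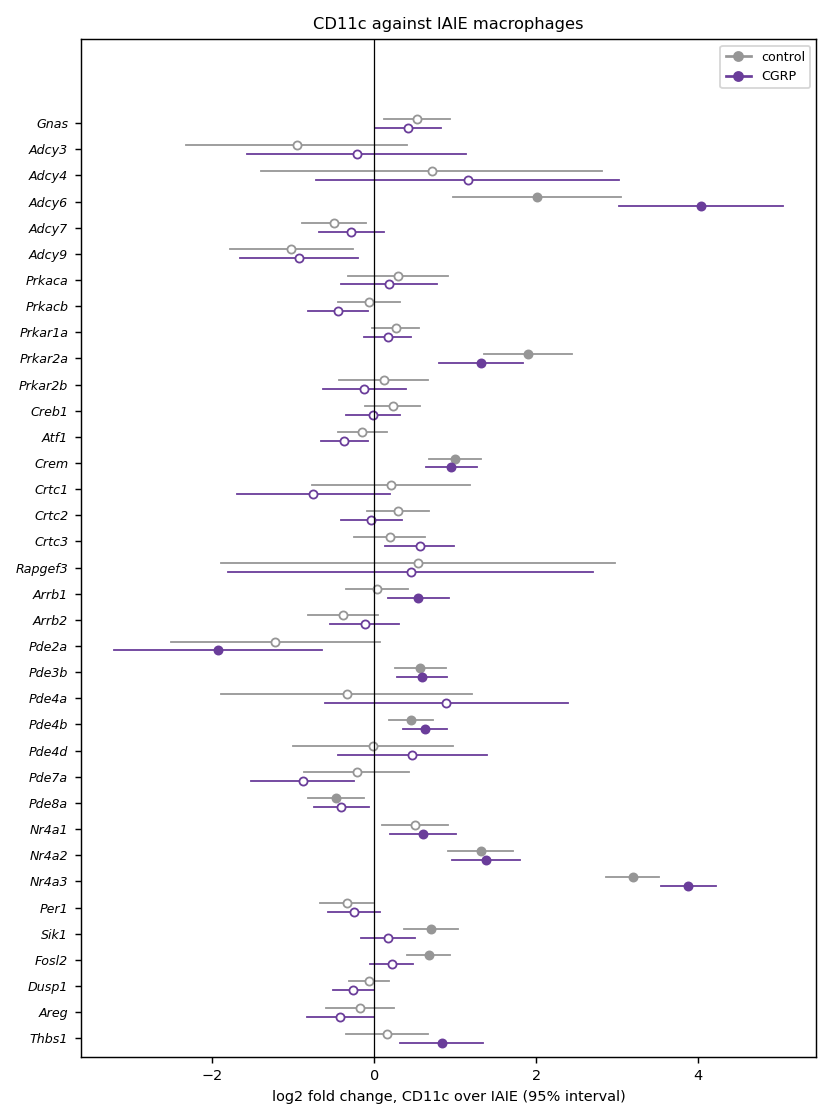
Log2 fold change of CD11c over IAIE cells for the 36 tested members, among control and among CGRP libraries; lines are 95% intervals, and filled points have an adjusted p under 0.05. Nr4a3 and Adcy6 lie furthest to the right.

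Scaled to exon length (GENCODE vM21, an annotation of the build the reads were aligned to), levels of the members spanned several orders of magnitude. The annotation used for the counts is not given, and exon lengths in it may differ. Thbs1 was first in all 4 groups, from 938 ± 369 CPM per kilobase in IAIE control to 3168 ± 322 in CD11c CGRP. Dusp1 followed in IAIE control at 347 ± 40.6 CPM per kilobase and in CD11c control at 332 ± 31.5, where Nr4a3, at 317 ± 25.5, did not differ from it beyond their spread. In IAIE control Nr4a3 was at 34.7 ± 0.687 CPM per kilobase. Of the machinery, Prkar1a was highest, at 48.8 ± 9.16 CPM per kilobase in IAIE control and 65 ± 7.45 in CD11c CGRP, and Pde4b was at 30.6 ± 1.73 in IAIE control and 42 ± 4.27 in CD11c control. Atf1, at 31.8 ± 2.12 in IAIE control, did not differ from Pde4b there beyond their spread. Adcy7 was at 18.1 ± 1.49 CPM per kilobase in IAIE control and 7.69 ± 2.05 in CD11c CGRP, where Adcy6 was at 4.91 ± 1.61. Gnas was at 4.56 ± 0.402 to 6.51 ± 2.0 CPM per kilobase in control cells. Lengths join all annotated exons of a symbol, 11186 bases for Gnas, and can exceed those of single transcripts. Levels of genes with many alternative exons may therefore be too low in this ranking.

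**Figure D5:**
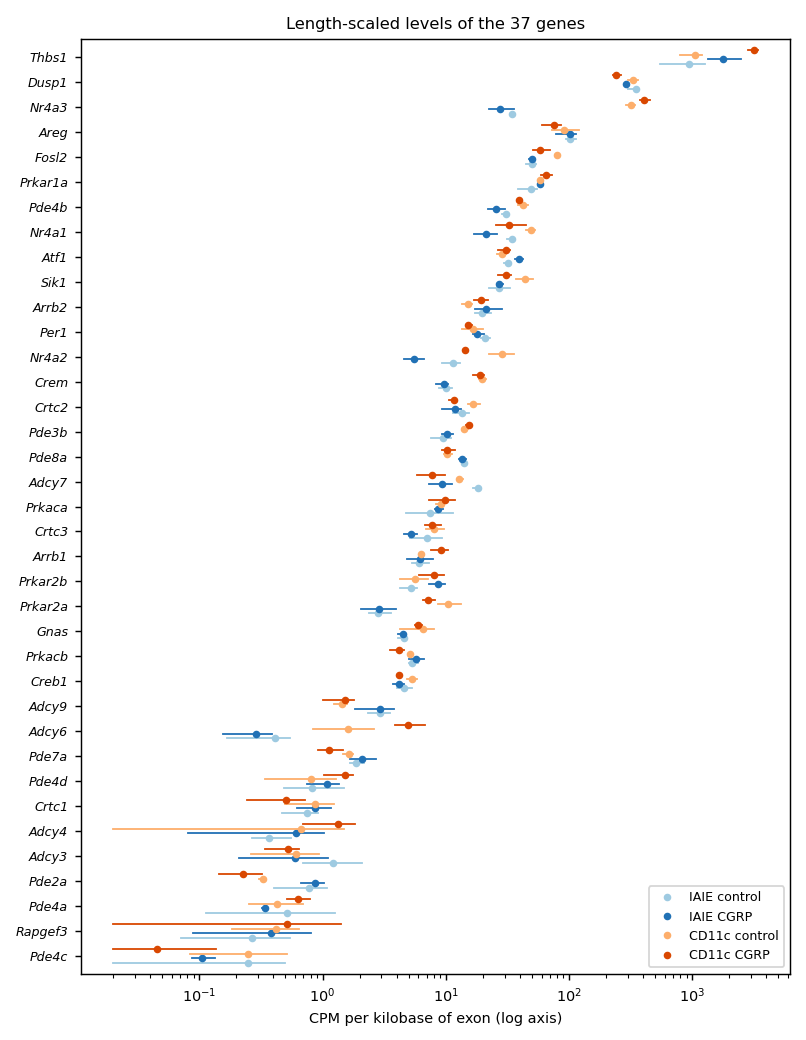
Mean CPM per kilobase of exon of the 37 genes in each group, on a log axis, with lines from the lowest to the highest library; values at 0 are drawn near the left edge. Thbs1, Dusp1 and, in CD11c cells, Nr4a3 stand above the other members.

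Further genes of the pathway were taken from 2 lists. The first held 72 genes, among them G proteins, other cyclases and phosphodiesterases, PKA subunits and inhibitors, anchoring proteins and Rap factors. Receptors, CREB-family factors, co-activators, kinases and transporters were also on it. Of these 72 genes, 47 were tested. In IAIE cells 4 rose and 3 fell, beside 5.32% of all genes that rose and 3.89% that fell. Akap9, an anchoring protein gene of PKA, stood at 45.6, 61.6 and 55.1 CPM in control and 88.7, 90.4 and 105 CPM after CGRP (log2 difference 0.81 ± 0.17), and Abcc4, which encodes an exporter of cAMP, rose by 1.28 ± 0.28. Cap1 and Gng5 rose by 0.39 ± 0.10 and 0.62 ± 0.18. Rapgef6 fell by 1.10 ± 0.15, at 210, 175 and 161 CPM in control and 92.6, 81.9 and 81.3 CPM after CGRP, and Rap1b and the prostaglandin receptor gene Ptger4 fell by 0.44 ± 0.11 and 0.62 ± 0.19. In CD11c cells 3 rose and 1 fell, beside 6.29% and 4.59% of all genes. Pkib, which encodes an inhibitor of PKA, stood at 67.3, 85.6 and 98.7 CPM in control and 157, 181 and 217 CPM after CGRP (1.13 ± 0.25), Creb5 rose by 1.03 ± 0.26, the CREB co-activator gene Ep300 by 0.54 ± 0.16, and Akap13 fell by 0.70 ± 0.13. The median log2 change of the tested genes was 0.0075 in IAIE and 0.04 in CD11c cells.

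Of 42 further genes listed as responsive to CREB, 39 were tested, and 5 rose and 10 fell in IAIE cells, where 5.32% and 3.89% of all genes did so, and 6 rose and 7 fell in CD11c cells, where 6.29% and 4.59% did so. Vegfa, a growth factor for vessels, stood at 222, 307 and 252 CPM in IAIE control and 794, 789 and 793 CPM in IAIE CGRP (log2 difference 1.60 ± 0.14). In CD11c cells it rose by 1.09 ± 0.13. Ptgs2, the inducible prostaglandin synthase gene, rose by 1.28 ± 0.22 and 1.05 ± 0.22, and Arg1, the arginase of macrophages, by 4.04 ± 0.81 and 3.86 ± 0.81, from 6.2 to 113 CPM in IAIE control to 237 to 1358 CPM after CGRP. Among genes that fell, Klf2 did so by 0.83 ± 0.13 in IAIE and 1.29 ± 0.13 in CD11c cells and Fosb by 1.11 ± 0.12 and 1.06 ± 0.12. Of a separate list of 16 early stress genes, which dissociation of tissue is known to raise, 6 fell and 1 rose in IAIE cells (3.89% and 5.32% of all genes) and 3 fell and 1 rose in CD11c cells (4.59% and 6.29% of all genes). In each subset 13 of the 16 had a negative difference, with a median log2 change of -0.47 in IAIE and -0.15 in CD11c cells, and their part in the lower Nr4a1, Nr4a2, Fosl2 and Dusp1 was not tested; it shares Fos, Fosb, Junb, Egr1, Ier2 and Btg2 with the list of CREB-responsive genes. The summed level of the list, in which the heat shock genes Hspa1a, Hspa1b and Hsp90aa1 weigh most, overlapped between control and CGRP in both subsets. Between subsets in control, 9 of the 16 were lower in CD11c cells and 0 higher (10.9% and 10.2% of all genes), with a median log2 difference of -0.56. After CGRP 6 were lower and 1 higher (8.51% and 8.36% of all genes), with a median of -0.28. The part of these genes in the members' subset differences was not tested.

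For the receptor upstream, Calcrl averaged 34 ± 9.76 CPM in IAIE control and 41.8 ± 8.62 CPM in CD11c control and was not called after CGRP. Ramp1 stood at 31, 15.4 and 24.5 CPM in CD11c control and 9.4, 3.71 and 5.69 CPM in CD11c CGRP and fell by 1.89 ± 0.39 on the log2 scale (adjusted p = 0.00307); in IAIE cells its difference was -1.21 ± 0.44 (adjusted p = 0.103). Ramp3, which with Calcrl forms an adrenomedullin receptor, rose by 1.09 ± 0.16 in IAIE and 0.67 ± 0.13 in CD11c cells.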

How the data were processed

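Bulk RNA sequencing was performed on 12 libraries of 2 sorted macrophage subsets. The authors trimmed reads with Trim Galore, used HISAT2 for alignment to mm10 and featureCounts for counts per gene symbol; versions, annotation and strand setting are not given in the sources used here. The deposited values are raw counts, not normalised. The combined table repeats these counts, and 6 of its columns match no label and were not used. Libraries were amplified by PCR, and molecular identifiers were not used in the counts as far as the sources say, so floors cover counting error only.

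Genes were filtered with filterByExpr (minimum count 10, minimum total 15), scaled by TMM and fitted in 1 edgeR (4.0.16, R 4.3.3) quasi-likelihood model over all 12 libraries with a mean per group. P-values were adjusted over 11927 genes by the Benjamini-Hochberg method, and log2 changes are given ± SE. The test was tested on simulated data. Alternatives were DESeq2 (1.42.0), limma-voom (3.58.1) with quality weights, a surrogate variable from sva (3.50.0), scaling by RLE or by the upper quartile, no count filter beyond 1 count, blocks by replicate number or by explant (treatment and number), fits on the compared libraries alone, and each library left out. Leaving out the 3 libraries over 500 CPM of fibroblast and mural markers was chosen after seeing the data. Promoters were searched with Python 3.11.15.

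Members and lists were chosen with earlier results of these data known. All members are named, and those past the threshold are given by library; from the other lists at most 4 genes a direction and subset were named, by smallest p. Receptor subunits and Itgax were named outside this rule, with their values known. Groups came from sample titles, which call the control libraries healthy.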

Additional observations from a re-analysis of the deposited data

How the results depend on the processing

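Of 32 member differences past the threshold, 15 kept their call in every alternative, and none of 693 alternative values reversed direction; 97 missed the threshold. Counts of members are given below for the alternatives that moved them by more than 1.5 times; smaller moves of a count are not listed. In IAIE cells after CGRP the count of higher members was 0 with a surrogate variable, and that of lower members was 1 without the 3 marker-rich libraries. In CD11c cells after CGRP the higher count was 4 with limma-voom and 1 with a surrogate variable, and the lower count was 1 with a surrogate variable. For the difference between the subsets' responses the higher count was 1 with every gene of at least 1 count (Thbs1) and 1 with the explant block (Nr4a3). Between subsets in control, the lower count was 0 with RLE scaling, upper-quartile scaling, every gene of at least 1 count, limma-voom, the replicate block, a surrogate variable and without the marker-rich libraries, and 2 with DESeq2. Between subsets after CGRP, the higher count was 6 without the marker-rich libraries, and the lower count was 0 with every gene of at least 1 count, 2 with DESeq2, 4 with limma-voom and 0 with the explant block. The causes were not tested.

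With each library left out in turn, the higher and lower counts ranged from 0 to 1 and from 2 to 3 in IAIE cells after CGRP, from 1 to 3 and from 1 to 6 in CD11c cells after CGRP, from 8 to 11 and from 0 to 1 between subsets in control, and from 7 to 11 and from 0 to 2 between subsets after CGRP; both were 0 for the difference between responses.

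Labels do not say that a replicate number marks a shared explant. Over the 7161 genes whose mean reached 10 CPM, deviations from group means of same-numbered CGRP libraries of the 2 subsets correlated at 0.287, 0.083 and 0.114, so that 1 of 3 pairs lay under the 0.1 required to treat the numbers as pairing; every IAIE CGRP library correlated best with its own number. For the CGRP libraries this verdict depends on the genes used. Over the 7618 genes that had 10 counts or more in each library, the correlations were 0.233, 0.126 and 0.136, all over 0.1. That set was tried after the first values were seen. Same-numbered control libraries of the 2 subsets correlated at 0.0126, 0.0439 and -0.0134 over the 7161 genes. Over the 7618 genes they correlated at 0.0789, 0.0414 and 0.0677, so that the control pairs lay under 0.1 with either set. Each IAIE control library correlated best with its own number over the 7618 genes, but not over the 7161. Same-numbered control and CGRP libraries correlated at 0.158, 0.131 and 0.00844 in CD11c cells over the 7161 genes. In IAIE cells these values were 0.0196, 0.00338 and -0.0172. The pairing was therefore not assumed, and the block stands as an alternative. With the replicate block 1 member was higher and 3 lower in IAIE cells, 2 higher and 6 lower in CD11c cells (Nr4a1 being added), 9 higher and 0 lower between subsets in control, and 10 higher and 1 lower between subsets after CGRP. Under the explant block Pde2a had an adjusted p of 0.0565 and Nr4a1 of 0.0531 between subsets after CGRP.

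Depth limits the low members: with 3 counts at 0.534 to 1.34 CPM, Adcy3, Adcy4, Rapgef3, Pde2a, Pde4a and Pde4c were within reach of the floor. So was Adcy6 in IAIE cells, with 4 to 14 counts.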
